A study of Homo sapiens with 15 samples.

Results

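Genes of the amino acid and endoplasmic reticulum (ER) stress response that is built around the transcription factor ATF4 were followed in MDA-MB-436 cells, a human breast cancer cell line described in the series title as BRCA1 deficient, after treatment with a PARP1 inhibitor, a PI3K inhibitor or both. The set was a list of 37 genes, and a probe belonged to it when it was annotated to a listed gene and was detected, at a detection p under 0.05, by no fewer than 3 of 15 arrays. Probes were annotated to 35 of the 37 genes; ALDH1L2 and HERPUD1 had none and were not analysed here. All 48 annotated probes passed, out of 23680 passing probes in all, and the 35 genes were tested among 12302. Of the 48 probes 40 were detected on all 15 arrays, and the fewest was 3, for a probe of CTH; no annotated probe lay outside the threshold.

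Total RNA was measured on Illumina HumanHT-12 arrays after 7 days of treatment, with 3 arrays in each of 5 groups. The groups were AG014699 (rucaparib, the PARP1 inhibitor) at 10 nM, AG014699 at 100 nM, LY294002 (the PI3K inhibitor, at a concentration not given in the sources used here), 100 nM AG014699 with LY294002 (the combination), and the solvent DMSO. All 15 arrays came from the 1 cell line, and the labels call the arrays of a group triplicates without saying that they came from separate cultures, so the p-values cover only array-to-array spread that may be technical. Each array had 18971 to 20808 detected probes, and the correlation over genes was 0.979 to 0.992 within groups and 0.959 to 0.988 between them. VIM, CD44 and CAV1, markers of mesenchymal or basal breast cancer lines, were detected on 15 of 15 arrays. SPARC, of the same marker list, was detected on only 2, and FN1 had no annotated probe. ESR1, the oestrogen receptor gene of luminal cells, was detected on 3 arrays, while the luminal keratin genes KRT8 and KRT18 and the luminal factor gene FOXA1 were detected on 15. The B-cell marker CD79A was detected on 12 arrays and the endothelial marker PECAM1 on 2.

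ATF4 is translated more efficiently when the initiation factor eIF2 is phosphorylated, which happens during amino acid shortage, ER stress and other stresses, and it then activates genes for amino acid synthesis, uptake and loading onto tRNA. In growing cells ATF4 is also kept up by mTORC1, a kinase complex downstream of PI3K. ATF4 often acts with C/EBP proteins at a composite DNA element, and the ER chaperone genes are driven in addition by the factors ATF6 and XBP1 through the ER stress element.

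Promoter windows of RefSeq (GRCh38.p14), running from 250 bases before to 50 bases after a gene's start, were found for 33 of the 37 genes. The core of the C/EBP-ATF element, TGATGNAA on either strand, lay in the windows of 12 of the 33 genes, and in 4.46% of all 27305 gene symbols with a window. They were ASNS, CHAC1, CEBPG, SLC3A2, SLC7A1, SLC1A5, SLC1A4, AARS1, GARS1, MARS1, NARS1 and HERPUD1. The ER stress element, CCAAT and CCACG with 9 bases between them on either strand, lay in the windows of HSPA5 and XBP1 and in 0.0916% of all symbols, and the cAMP response element TGACGTCA, which reads the same on both strands, in that of PPP1R15A and in 2.25% of all symbols. No match overlapped another motif's match. The 250 bases before the start are shown for 7 genes whose values are described below: ASNS and CHAC1 with the C/EBP-ATF core, HSPA5 and XBP1 with the ER stress element, PPP1R15A with the cAMP response element, and PHGDH and PSAT1, in whose windows none of these letters was found. ASNS and XBP1 each had 2 windows, of which the one with the match is shown. Capitals mark the match, and a match describes the letters only. The windows were chr7:97872409-97872658 on the minus strand for ASNS, chr15:40953221-40953470 on the plus strand for CHAC1, chr9:125241344-125241593 on the minus strand for HSPA5, chr22:28800570-28800819 on the minus strand for XBP1, chr19:48872171-48872420 on the plus strand for PPP1R15A, chr1:119711684-119711933 on the plus strand for PHGDH and chr9:78296875-78297124 on the plus strand for PSAT1.
ASNS: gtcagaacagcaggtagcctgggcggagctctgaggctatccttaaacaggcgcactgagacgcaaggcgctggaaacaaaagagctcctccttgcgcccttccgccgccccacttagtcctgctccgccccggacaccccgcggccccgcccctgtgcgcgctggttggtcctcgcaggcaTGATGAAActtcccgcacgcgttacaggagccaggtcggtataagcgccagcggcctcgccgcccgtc
CHAC1: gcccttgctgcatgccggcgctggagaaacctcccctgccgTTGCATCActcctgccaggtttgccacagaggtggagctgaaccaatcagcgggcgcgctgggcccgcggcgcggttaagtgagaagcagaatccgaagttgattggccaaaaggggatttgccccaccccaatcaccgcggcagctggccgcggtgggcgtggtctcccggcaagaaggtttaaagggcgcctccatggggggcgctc
HSPA5: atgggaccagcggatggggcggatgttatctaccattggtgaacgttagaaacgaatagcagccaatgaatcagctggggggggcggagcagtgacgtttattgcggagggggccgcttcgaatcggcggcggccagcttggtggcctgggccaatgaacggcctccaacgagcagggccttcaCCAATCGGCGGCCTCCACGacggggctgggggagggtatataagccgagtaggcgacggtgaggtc
XBP1: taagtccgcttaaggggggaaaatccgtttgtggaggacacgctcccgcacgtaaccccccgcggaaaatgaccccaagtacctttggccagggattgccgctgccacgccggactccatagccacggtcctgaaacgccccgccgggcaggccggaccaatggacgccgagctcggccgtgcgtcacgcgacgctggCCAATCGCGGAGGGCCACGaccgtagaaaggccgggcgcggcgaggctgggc
PPP1R15A: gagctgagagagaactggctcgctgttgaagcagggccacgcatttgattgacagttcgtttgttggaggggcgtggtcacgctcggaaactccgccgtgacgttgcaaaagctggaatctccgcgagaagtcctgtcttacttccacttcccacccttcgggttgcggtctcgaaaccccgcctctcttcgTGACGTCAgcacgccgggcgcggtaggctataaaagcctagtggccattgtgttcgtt
PHGDH: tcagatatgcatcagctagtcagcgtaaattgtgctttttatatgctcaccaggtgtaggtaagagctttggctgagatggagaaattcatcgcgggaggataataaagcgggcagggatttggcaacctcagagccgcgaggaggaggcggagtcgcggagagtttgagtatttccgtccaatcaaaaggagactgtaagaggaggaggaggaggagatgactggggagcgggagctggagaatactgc
PSAT1: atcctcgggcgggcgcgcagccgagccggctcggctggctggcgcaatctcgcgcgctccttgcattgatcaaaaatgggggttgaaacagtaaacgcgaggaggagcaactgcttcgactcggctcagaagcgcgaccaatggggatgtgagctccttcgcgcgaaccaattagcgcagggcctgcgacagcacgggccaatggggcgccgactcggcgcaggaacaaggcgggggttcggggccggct
The core in ASNS ran from -68 to -61 relative to the start and that in CHAC1 from -209 to -202. The ER stress element ran from -66 to -48 in HSPA5 and from -52 to -34 in XBP1, and the cAMP response element from -58 to -51 in PPP1R15A.

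The 35 genes moved in both directions. With 100 nM AG014699 or the combination, the stress regulators DDIT3 and PPP1R15A, the transporter subunit SLC3A2 and the secreted glycoprotein gene STC2 rose 1.76-fold to 3.12-fold against DMSO, while the 3 serine synthesis enzymes, CBS and the amino acid transporter SLC7A5 fell to between 0.571 and 0.747 times the DMSO level. LY294002 alone lowered the serine enzymes and CBS and raised no member past the threshold. A gene was called at a limma p-value under 0.05 after Benjamini-Hochberg adjustment over the 12302 genes. In a bulk sample, fewer cells of a type and less RNA per cell cannot be told apart.

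At 10 nM AG014699, 3 of the 35 members were called against DMSO, all higher, where 2.37% of all genes were called and 1.74% were called higher; the median log2 change was 0.07 over the members and -0.01 over all genes. At 100 nM, 10 members were called, 5 higher and 5 lower, against 21.5% of all genes (10.7% higher and 10.8% lower), with medians of -0.02 and -0.03. With LY294002 alone 4 were called, all lower, against 1.12% of all genes (0.512% higher and 0.61% lower), with medians of -0.19 and -0.01. In the combination 13 were called, 6 higher and 7 lower, against 19.9% of all genes (10.4% higher and 9.54% lower), with medians of -0.17 and -0.02. These 4 comparisons share the 3 DMSO arrays. The list was chosen with earlier results of these data known, so the shares of all genes are not an independent yardstick for it. Over all 8 comparisons made, 17 members were called at least once and 18 never. The share of all genes called at least once was not counted, so these numbers have no background beside them.

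**Figure D1:**
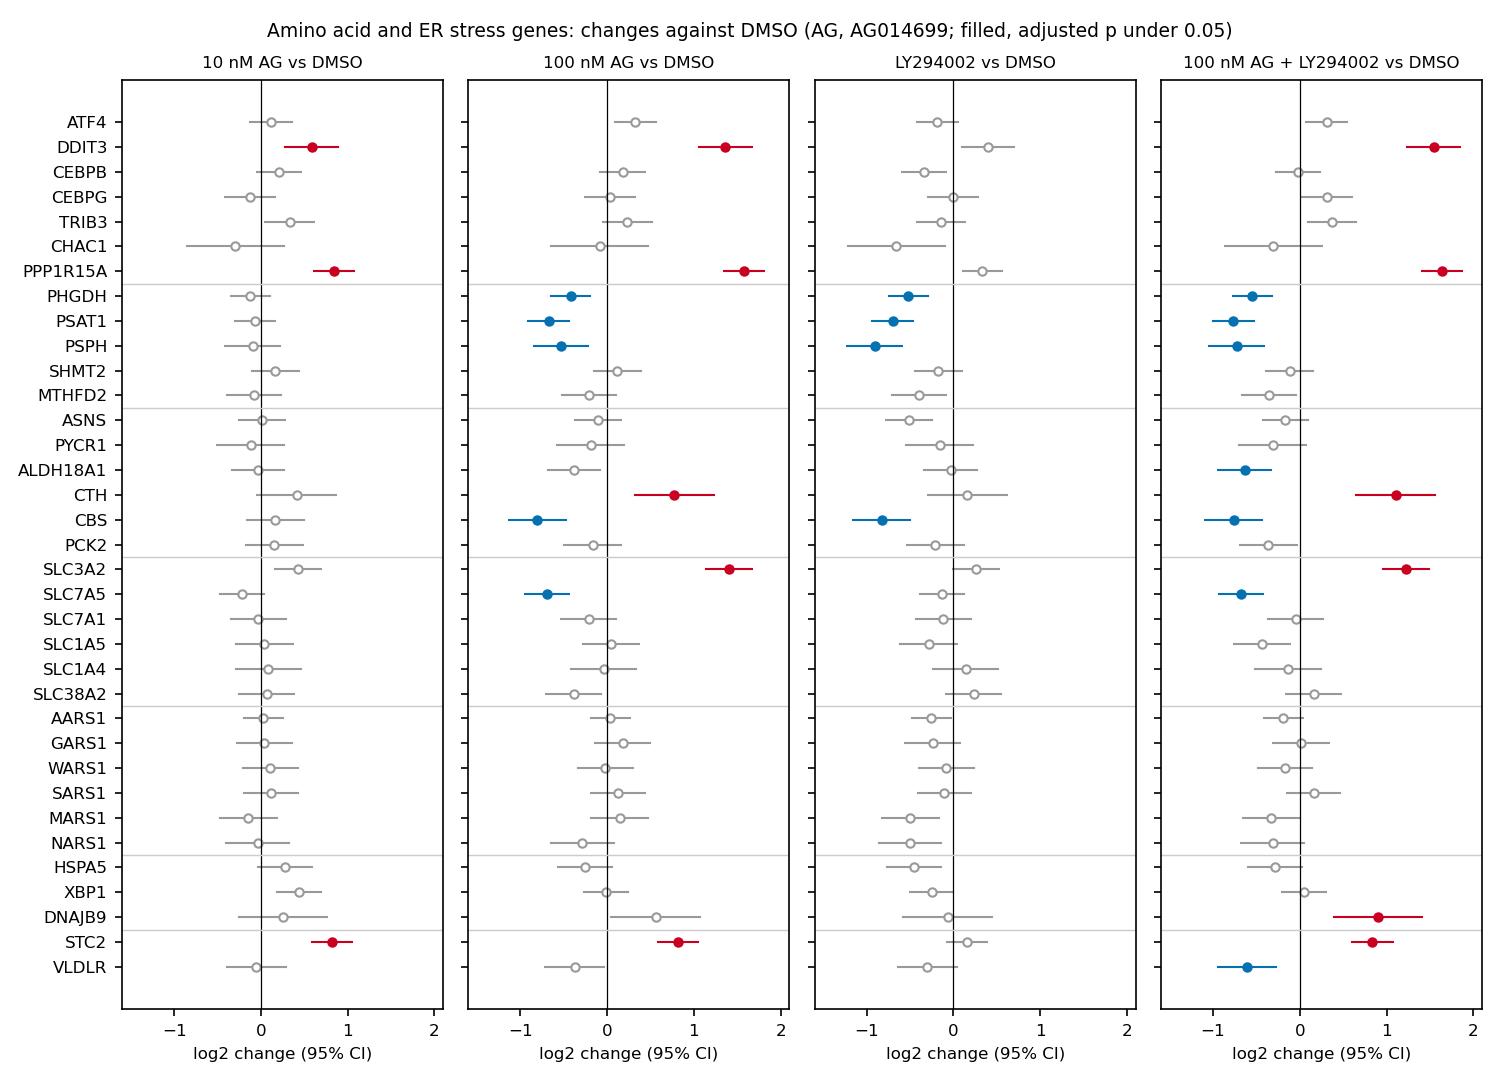
Log2 change of each of the 35 members against DMSO (x axis, with the 95% interval of the limma fit, n = 3 arrays a group) for 10 nM AG014699, 100 nM AG014699, LY294002 and the combination, with genes down the page by role. Filled red points were called higher, filled blue points lower and open points were not called; 3, 10, 4 and 13 members are filled.

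Among the 7 regulators, PPP1R15A, whose product guides the phosphatase that removes the phosphate from eIF2, gave the largest change. Its log2 signal was 11.92, 11.98 and 11.88 with 10 nM AG014699, 12.69, 12.69 and 12.63 with 100 nM, 11.42, 11.48 and 11.36 with LY294002 and 12.71, 12.82 and 12.66 in the combination, against 11.20, 10.97 and 11.08 in DMSO. Every treated array lay above all 3 DMSO arrays, and the arrays with 100 nM, with or without LY294002, lay above all others. The log2 change against DMSO was 0.84 (SE 0.11, adjusted p = 0.00028) at 10 nM, 1.58 (SE 0.11, adjusted p = 1.18e-07) at 100 nM and 1.64 (SE 0.11, adjusted p = 8.2e-08) in the combination. LY294002 alone gave 0.33 (SE 0.11, adjusted p = 0.173), which did not pass. PPP1R15A was also higher at 100 nM than at 10 nM, by 0.74 (SE 0.11, adjusted p = 0.000558).

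DDIT3, which encodes the stress transcription factor CHOP, followed the same order of groups. Its log2 signal was 9.78, 9.60 and 9.68 at 10 nM AG014699, 10.50, 10.57 and 10.31 at 100 nM, 9.75, 9.43 and 9.32 with LY294002 and 10.63, 10.64 and 10.66 in the combination, against 9.35, 8.95 and 9.0 in DMSO. The LY294002 arrays overlapped those of DMSO and of 10 nM, and the arrays with 100 nM did not overlap the rest. DDIT3 rose 2.57-fold at 100 nM (log2 change 1.36, SE 0.14, adjusted p = 9.47e-06) and 2.91-fold in the combination (1.54, SE 0.14, adjusted p = 2.9e-06). The smaller rise at 10 nM (0.59, SE 0.14, adjusted p = 0.0426) was lost, at adjusted p of 0.0575 to 0.19, when any 1 of 9 arrays was left out: each of the 3 at 10 nM, DMSO arrays 2 and 3, LY294002 array 2 and each of the 3 combination arrays.

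**Figure D2:**
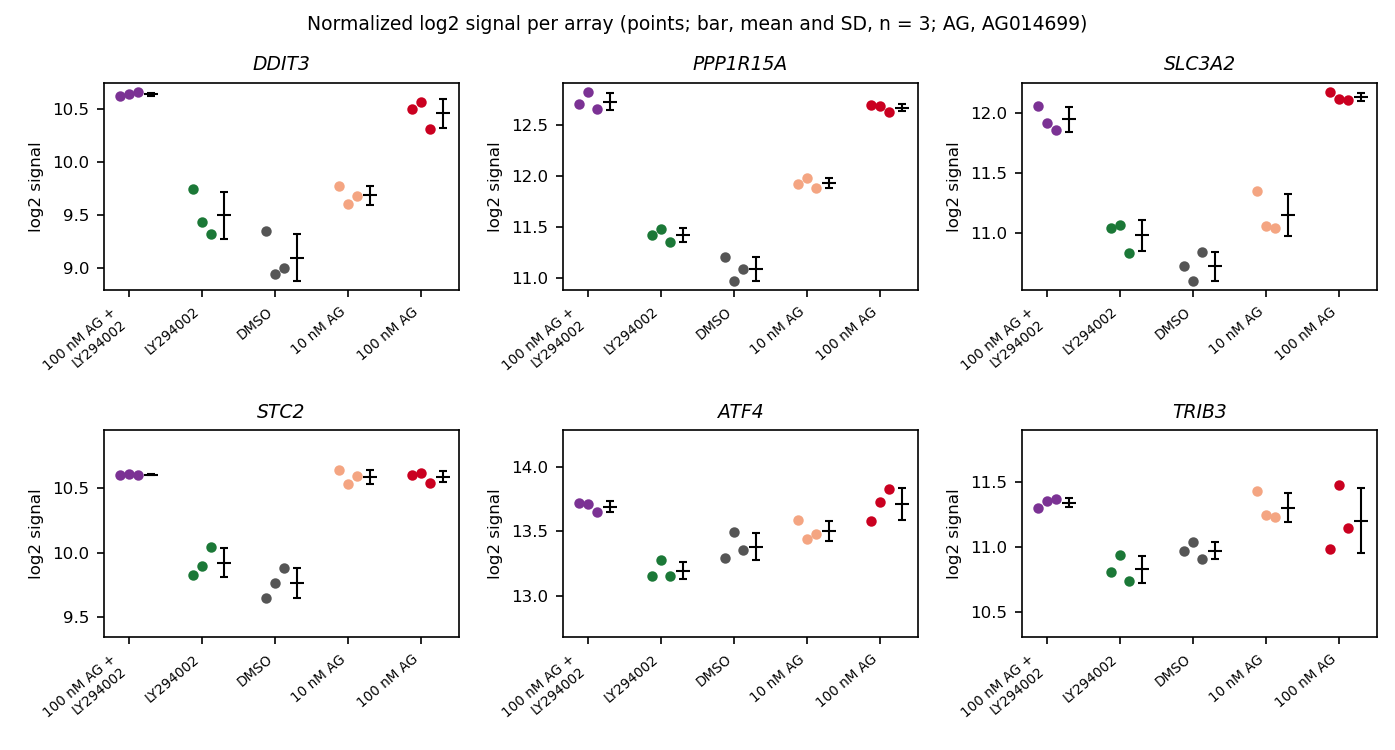
Normalized log2 signal (y axis) on each array, by treatment (x axis), for DDIT3, PPP1R15A, SLC3A2, STC2, ATF4 and TRIB3; points are arrays, and the bar beside them is the mean with its SD (n = 3). In the top row the arrays with 100 nM AG014699, with or without LY294002, lie above all others, while STC2 at 10 nM lies at the level of 100 nM.

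ATF4 mRNA itself differed less. The log2 signal of the probe used was 13.59, 13.44 and 13.48 at 10 nM, 13.58, 13.72 and 13.82 at 100 nM, 13.16, 13.28 and 13.16 with LY294002 and 13.72, 13.71 and 13.65 in the combination, against 13.29, 13.50 and 13.36 in DMSO. The 100 nM and combination arrays lay above the DMSO arrays, and the log2 change of 0.33 (SE 0.11) at 100 nM missed the threshold (adjusted p = 0.0503), as did 0.31 in the combination (adjusted p = 0.0656). ATF4 was called in 1 comparison, the combination against LY294002, where it rose by 0.50 (SE 0.11, adjusted p = 0.00649). Of its other probes, 1 gave 0.72 there (adjusted p = 0.0241 among all probes) and 0.73 against DMSO (adjusted p = 0.0198), and another gave -0.50 (adjusted p = 0.242), so the probes of ATF4 disagreed in sign.

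TRIB3, a pseudokinase gene induced by ATF4 and CHOP, had log2 signals of 11.30, 11.36 and 11.37 in the combination, against 10.81, 10.94 and 10.74 with LY294002 alone. The 2 groups did not overlap, and TRIB3 rose by 0.52 (SE 0.13, adjusted p = 0.0134). Against DMSO its change was 0.37 in the combination (adjusted p = 0.0606) and 0.23 at 100 nM AG014699 (adjusted p = 0.228). The partner factor genes CEBPB and CEBPG and the glutathione-degrading enzyme gene CHAC1 were called in no comparison. With LY294002 against DMSO, CEBPB changed by -0.34 (adjusted p = 0.212) and CHAC1 by -0.66 (adjusted p = 0.277), and in the combination against DMSO CEBPG changed by 0.32 (adjusted p = 0.115).

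The enzymes of serine synthesis were lower with each inhibitor except the low AG014699 dose. PHGDH, PSAT1 and PSPH catalyse the successive steps from 3-phosphoglycerate to serine. PSAT1 had log2 signals of 10.55, 10.62 and 10.75 at 10 nM, 10.03, 9.97 and 10.10 at 100 nM, 10.01, 10.01 and 10.00 with LY294002 and 9.83, 10.01 and 9.99 in the combination, against 10.61, 10.77 and 10.75 in DMSO. The 10 nM arrays overlapped DMSO, and all other treated arrays lay below both. PSAT1 fell by 0.68 (SE 0.11, adjusted p = 0.00049) at 100 nM, by 0.70 (SE 0.11, adjusted p = 0.00441) with LY294002 and by 0.77 (SE 0.11, adjusted p = 0.00018) in the combination. Between the doses it fell by 0.61 at 100 nM against 10 nM (SE 0.11, adjusted p = 0.00294).

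PSPH had log2 signals of 9.52, 9.71 and 9.48 at 10 nM, 9.12, 9.29 and 9.0 at 100 nM, 8.78, 8.81 and 8.68 with LY294002 and 8.65, 9.17 and 8.99 in the combination, against 9.83, 9.64 and 9.53 in DMSO. The LY294002, 100 nM and combination arrays all lay below DMSO. It fell by 0.91 (SE 0.15, adjusted p = 0.00536) with LY294002, by 0.73 (SE 0.15, adjusted p = 0.00268) in the combination and by 0.53 (SE 0.15, adjusted p = 0.0176) at 100 nM. The 100 nM call was lost without 100 nM array 3 (adjusted p = 0.0605) or DMSO array 1 (adjusted p = 0.0723). The second PSPH probe was called lower at 100 nM, by 0.77, and not with LY294002, at -0.65 (adjusted p = 0.0915 among all probes), nor in the combination, at -0.44 (adjusted p = 0.0702), where its arrays overlapped DMSO. Transcripts of near-identical copies of this gene cannot be told apart from it here.

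PHGDH, the entry enzyme, had log2 signals of 13.31, 13.38 and 13.23 at 10 nM, 12.96, 13.02 and 13.06 at 100 nM, 12.89, 12.94 and 12.91 with LY294002 and 12.92, 12.83 and 12.90 in the combination, against 13.43, 13.33 and 13.54 in DMSO. It fell by 0.42 (SE 0.11, adjusted p = 0.0106) at 100 nM, by 0.52 (SE 0.11, adjusted p = 0.0249) with LY294002 and by 0.55 (SE 0.11, adjusted p = 0.00197) in the combination. The LY294002 call was lost without any 1 of the 3 LY294002 and 3 DMSO arrays (adjusted p = 0.051 to 0.119), although the arrays of the 2 groups did not overlap. SHMT2 and MTHFD2, which pass the carbon of serine to folate in mitochondria, were called in no comparison; MTHFD2 changed by -0.40 with LY294002 (adjusted p = 0.235) and by -0.36 in the combination (adjusted p = 0.104).

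**Figure D3:**
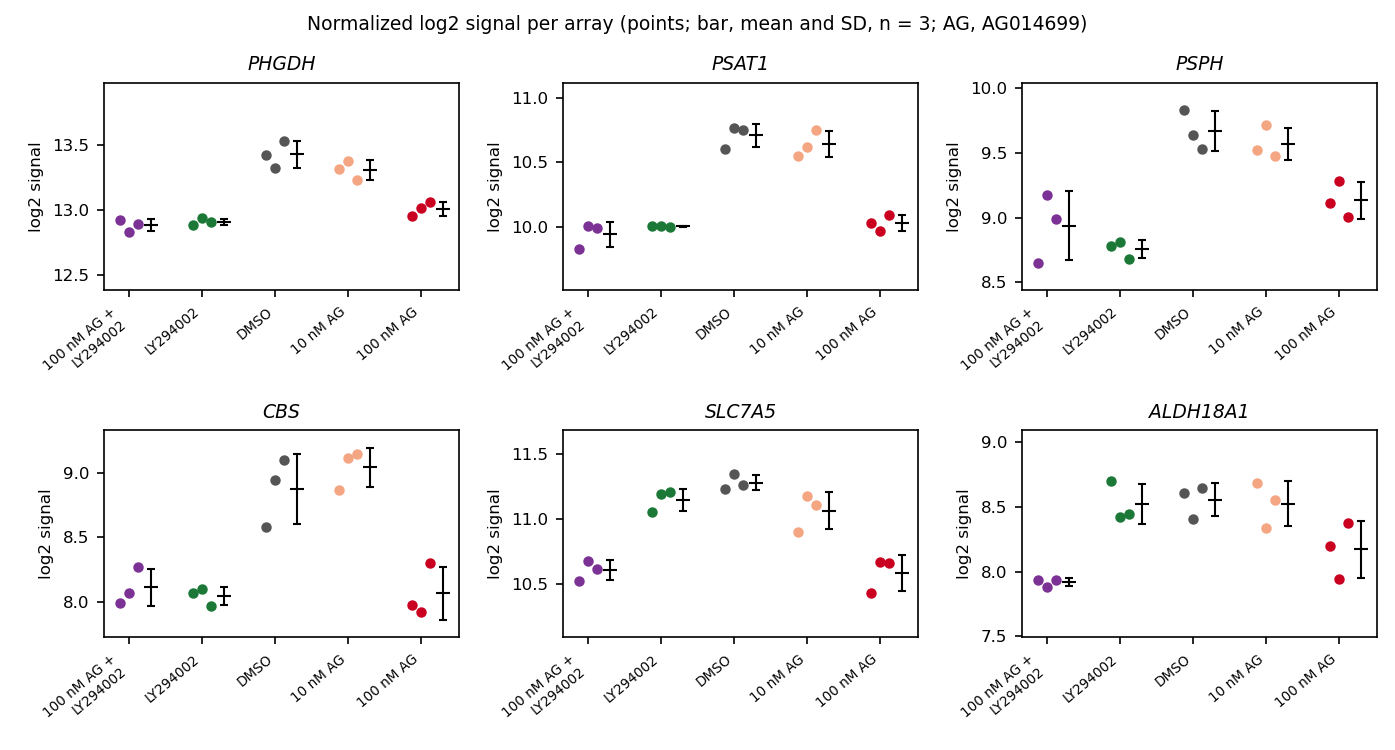
Normalized log2 signal (y axis) on each array, by treatment (x axis), for PHGDH, PSAT1, PSPH, CBS, SLC7A5 and ALDH18A1; points are arrays, and the bar beside them is the mean with its SD (n = 3). For PHGDH, PSAT1, PSPH and CBS the LY294002, 100 nM AG014699 and combination arrays lie below the DMSO and 10 nM arrays; for SLC7A5 the arrays of the 2 groups with 100 nM AG014699 lie below all others.

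CBS and CTH encode the consecutive enzymes that turn homocysteine into cysteine. At 100 nM AG014699, with or without LY294002, CBS fell against DMSO while CTH rose on the probe used. CBS had log2 signals of 8.87, 9.11 and 9.14 at 10 nM, 7.98, 7.92 and 8.30 at 100 nM, 8.07, 8.10 and 7.97 with LY294002 and 8.0, 8.07 and 8.27 in the combination, against 8.58, 8.95 and 9.10 in DMSO. It fell by 0.81 (SE 0.15, adjusted p = 0.00168) at 100 nM, by 0.83 (SE 0.15, adjusted p = 0.0155) with LY294002 and by 0.76 (SE 0.15, adjusted p = 0.00284) in the combination, and by 0.97 (SE 0.15, adjusted p = 0.0011) at 100 nM against 10 nM. The LY294002 call was lost without LY294002 array 3 (adjusted p = 0.0532), DMSO array 2 (0.0807) or DMSO array 3 (0.079). A near-identical second copy of CBS is annotated in the genome, and the probe may not tell the copies apart.

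CTH had log2 signals of 5.92, 5.77 and 5.91 at 10 nM, 5.89, 6.29 and 6.51 at 100 nM, 5.48, 5.37 and 6.0 with LY294002 and 6.78, 6.51 and 6.39 in the combination, against 5.85, 5.42 and 5.09 in DMSO. It rose by 1.10 (SE 0.21, adjusted p = 0.00199) in the combination and by 0.78 (SE 0.21, adjusted p = 0.0172) at 100 nM. With LY294002 alone CTH was not called, at 0.16 (adjusted p = 0.799). These signals were dim, and without background correction the rise was 0.47 in the combination and 0.31 at 100 nM. The call at 100 nM was lost without 100 nM array 2 (adjusted p = 0.052), 100 nM array 3 (0.067), DMSO array 2 (0.0531) or DMSO array 3 (0.0843). The other 2 CTH probes gave 0.36 and 0.29 in the combination and 0.06 and 0.04 at 100 nM and were not called; 1 of them was detected on only 3 arrays.

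Of the proline synthesis enzymes, ALDH18A1 was called and PYCR1 was not. ALDH18A1 had log2 signals of 7.94, 7.88 and 7.93 in the combination, against 8.70, 8.42 and 8.45 with LY294002 and 8.61, 8.41 and 8.65 in DMSO. It fell in the combination by 0.64 against DMSO (SE 0.14, adjusted p = 0.00525) and by 0.61 against LY294002 (SE 0.14, adjusted p = 0.00787), and its change at 100 nM alone was -0.38 (adjusted p = 0.066). ASNS, the asparagine synthetase gene and a standard ATF4 target, was called in no comparison. Its log2 signal was 11.76, 11.63 and 11.66 at 10 nM, 11.56, 11.68 and 11.46 at 100 nM, 11.08, 11.15 and 11.24 with LY294002 and 11.49, 11.60 and 11.43 in the combination, against 11.89, 11.51 and 11.61 in DMSO. The LY294002 arrays lay below those of every other group, with a change against DMSO of -0.51 (SE 0.12, adjusted p = 0.0621), and the second ASNS probe gave -0.13. PCK2, the mitochondrial phosphoenolpyruvate carboxykinase gene, was not called on the probe used, nor on the next, at 0.08 at 100 nM and -0.23 in the combination. The remaining PCK2 probe was called lower against DMSO at 100 nM (adjusted p = 0.00132 among all probes) and in the combination (adjusted p = 0.00468), and at 100 nM against 10 nM (adjusted p = 0.000743). It was detected on 0 of 3 arrays at 100 nM and 1 of 3 in the combination, so its fall at 100 nM has only a bound, from the lowest signal among detected probes: at least 1.62-fold lower than in DMSO and at least 1.90-fold lower than at 10 nM.

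Among the 6 transporter genes, SLC3A2 rose and SLC7A5 fell. SLC3A2 encodes the heavy chain that several amino acid exchangers share, and SLC7A5 the leucine-carrying light chain LAT1 that pairs with it. SLC3A2 had log2 signals of 11.36, 11.06 and 11.05 at 10 nM, 12.17, 12.12 and 12.11 at 100 nM, 11.05, 11.07 and 10.84 with LY294002 and 12.06, 11.92 and 11.87 in the combination, against 10.73, 10.61 and 10.85 in DMSO. It rose 2.65-fold at 100 nM (log2 change 1.41, SE 0.13, adjusted p = 1.92e-06) and 2.33-fold in the combination (1.22, SE 0.13, adjusted p = 8.24e-06), and by 0.98 between the doses (SE 0.13, adjusted p = 0.000202). The second SLC3A2 probe was called in the same 3 comparisons, at 1.66, 1.55 and 1.18, and the change at 10 nM, 0.43, did not pass (adjusted p = 0.102).

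SLC7A5 had log2 signals of 10.90, 11.18 and 11.11 at 10 nM, 10.43, 10.67 and 10.66 at 100 nM, 11.05, 11.19 and 11.21 with LY294002 and 10.52, 10.68 and 10.61 in the combination, against 11.23, 11.35 and 11.26 in DMSO. Arrays with 100 nM AG014699 lay below all others, with or without LY294002. It fell by 0.70 (SE 0.12, adjusted p = 0.000764) at 100 nM and by 0.68 (SE 0.12, adjusted p = 0.00102) in the combination, and LY294002 alone gave -0.13 (adjusted p = 0.684). At 100 nM against 10 nM it fell by 0.48 (adjusted p = 0.0199), a call lost without 10 nM array 2 (adjusted p = 0.0898), 10 nM array 3 (0.0718) or 100 nM array 1 (0.0687). SLC7A1, SLC1A5, SLC1A4 and SLC38A2, carriers of cationic amino acids, glutamine and other neutral amino acids, were called in no comparison. SLC1A5 came nearest, at -0.44 in the combination against DMSO (adjusted p = 0.0588).

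None of the 6 aminoacyl-tRNA synthetase genes of the list, AARS1, GARS1, WARS1, SARS1, MARS1 and NARS1, was called in any of the 8 comparisons. Their log2 changes against DMSO ran from -0.15 to 0.11 at 10 nM, from -0.29 to 0.18 at 100 nM, from -0.50 to -0.08 with LY294002 and from -0.33 to 0.16 in the combination. With LY294002 all 6 were below 0, and the lowest adjusted p among them was 0.15, for MARS1, which loads methionine. A further 7 cytosolic synthetase genes measured from a list of 8 were not called in any comparison either. Over all genes, 2.37% were called at 10 nM, 21.5% at 100 nM, 1.12% with LY294002 and 19.9% in the combination, each against DMSO. The shares were 9.58% between the doses, 0.333% in the combination against 100 nM, 18.3% against LY294002 and 0.00813% in the interaction. With 6 and 7 genes, 0 calls sets these genes little apart from all genes. EPRS1, a cytosolic synthetase gene of another list below, was called lower against DMSO at 100 nM and in the combination. Its log2 signals were 12.18, 12.21 and 12.25 in DMSO. They were 11.77, 11.80 and 11.87 at 100 nM and 11.88, 11.80 and 11.63 in the combination. The call at 100 nM was lost without 100 nM array 1 or 2 or DMSO array 2 or 3 (adjusted p = 0.059 to 0.0738). That in the combination was lost without combination array 3 (0.0742) or DMSO array 3 (0.051).

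The ER stress genes differed from each other. HSPA5, the ER chaperone BiP, had log2 signals of 9.81, 10.04 and 9.90 at 10 nM, 9.22, 9.46 and 9.47 at 100 nM, 9.23, 9.20 and 9.12 with LY294002 and 9.17, 9.34 and 9.54 in the combination, against 9.83, 9.35 and 9.72 in DMSO. XBP1, a factor of the unfolded protein response, had 12.03, 11.89 and 11.96 at 10 nM, 11.31, 11.70 and 11.51 at 100 nM, 11.17, 11.30 and 11.33 with LY294002 and 11.59, 11.57 and 11.55 in the combination, against 11.52, 11.57 and 11.47 in DMSO. On the probes used, the 10 nM arrays of both genes lay above the 100 nM arrays without overlap. At 100 nM against 10 nM, where 8 members were called, 3 higher and 5 lower, against 9.58% of all genes (4.71% higher and 4.88% lower), HSPA5 fell by 0.53 (SE 0.15, adjusted p = 0.0321) and XBP1 by 0.46 (SE 0.12, adjusted p = 0.0236). The second XBP1 probe, detected on all 15 arrays, did not pass: it had log2 signals of 11.87, 11.43 and 11.31 at 100 nM, against 11.74, 11.60 and 11.85 at 10 nM, groups that overlapped, with a difference of -0.19 (SE 0.16, adjusted p = 0.57 among all probes). The medians in that comparison were -0.10 over the members and -0.02 over all genes. Each of these calls was lost when any 1 of 5 of the 6 arrays was left out, every array but 100 nM array 3 for HSPA5 (adjusted p = 0.0505 to 0.119) and every array but 100 nM array 2 for XBP1 (adjusted p = 0.0504 to 0.0806). Neither gene was called against DMSO; XBP1 at 10 nM changed by 0.44 (adjusted p = 0.0708).

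DNAJB9, a cochaperone gene of BiP, had log2 signals of 9.62, 10.06 and 9.79 in the combination, against 8.23, 9.14 and 9.20 with LY294002 and 8.72, 8.99 and 9.06 in DMSO. It rose by 0.90 against DMSO (SE 0.24, adjusted p = 0.0154) and by 0.97 against LY294002 (SE 0.24, adjusted p = 0.0109). Without combination array 2 both calls were lost (adjusted p = 0.0677 and 0.0533), and the call against DMSO also without DMSO array 1 (adjusted p = 0.0626).

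**Figure D4:**
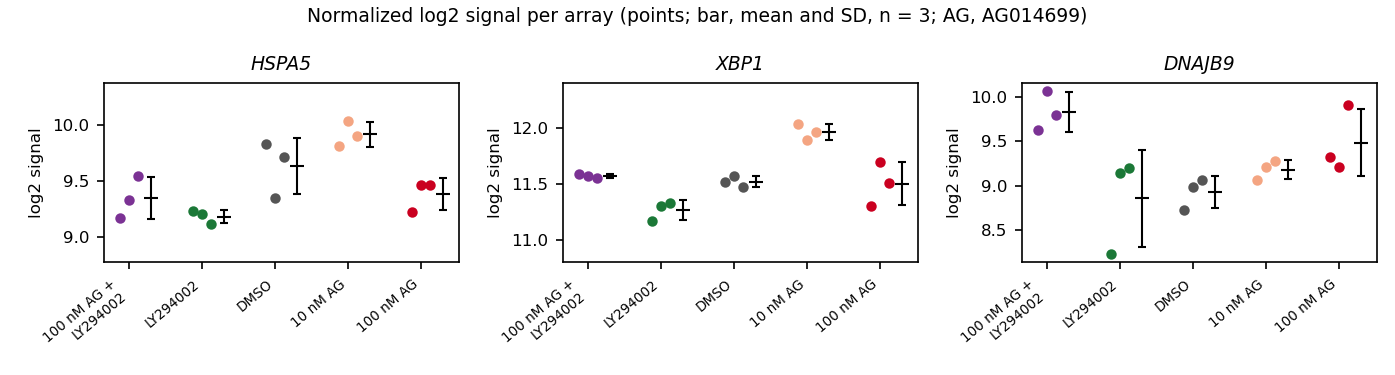
Normalized log2 signal (y axis) on each array, by treatment (x axis), for HSPA5, XBP1 and DNAJB9; points are arrays, and the bar beside them is the mean with its SD (n = 3). On the probes plotted, the 10 nM AG014699 arrays of HSPA5 and XBP1 lie above the 100 nM arrays, and the DNAJB9 arrays of the combination lie above those of LY294002 and DMSO.

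STC2, which encodes a secreted glycoprotein induced by ER stress, had log2 signals of 10.64, 10.53 and 10.59 at 10 nM, 10.60, 10.62 and 10.54 at 100 nM, 9.82, 9.90 and 10.05 with LY294002 and 10.60, 10.61 and 10.60 in the combination, against 9.65, 9.77 and 9.88 in DMSO. Every array with AG014699 lay above every array without it. It rose by 0.82 at each dose (SE 0.11, adjusted p = 0.00042 at 10 nM and 9.59e-05 at 100 nM) and by 0.84 in the combination (SE 0.11, adjusted p = 8e-05). At 100 nM against 10 nM its 95% interval ran from -0.24 to 0.23, whereas PPP1R15A, DDIT3 and SLC3A2 rose further between the doses. VLDLR, a lipoprotein receptor gene, had log2 signals of 7.14, 7.37 and 7.55 in the combination, against 7.98, 8.10 and 7.81 in DMSO. It fell by 0.61 (SE 0.16, adjusted p = 0.0139), a call lost without combination array 1 (adjusted p = 0.067) or DMSO array 2 (adjusted p = 0.0582).

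Adding LY294002 to 100 nM AG014699 changed no member past the threshold: 0 of 35 were called in the combination against 100 nM AG014699 by limma, where 0.333% of all genes were, and 4 had an unadjusted p under 0.05. The medians were -0.09 over the members and 0.01 over all genes. The smallest p was that of the neutral amino acid carrier SLC38A2, which had log2 signals of 11.01, 11.03 and 11.19 in the combination, against 10.49, 10.39 and 10.72 at 100 nM, a difference of 0.55 (SE 0.15, adjusted p = 0.135) between groups that did not overlap. The 95% interval was -0.32 to 0.14 for PSAT1, -0.17 to 0.29 for PPP1R15A and -0.12 to 0.48 for DDIT3.

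Adding 100 nM AG014699 to LY294002 changed 10 of 35 members, 8 higher and 2 lower, against 18.3% of all genes (9.42% higher and 8.86% lower), with medians of 0.17 over the members and 0.00 over all genes. PPP1R15A rose by 1.31 (SE 0.11, adjusted p = 1.16e-06), DDIT3 by 1.14 (SE 0.14, adjusted p = 6.45e-05), SLC3A2 by 0.97 (SE 0.13, adjusted p = 9.84e-05), CTH by 0.94 (SE 0.21, adjusted p = 0.00638) and STC2 by 0.68 (SE 0.11, adjusted p = 0.000562), beside ATF4, TRIB3 and DNAJB9 above. SLC7A5 fell by 0.55 (SE 0.12, adjusted p = 0.00531), as did ALDH18A1 above. The serine enzymes and CBS, already lower with LY294002 than in DMSO, were not called, with 95% intervals of -0.30 to 0.17 for PSAT1, -0.25 to 0.20 for PHGDH, -0.13 to 0.49 for PSPH and -0.26 to 0.40 for CBS.

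Whether the effects of the drugs added up was asked with the interaction, the effect of LY294002 in cells given 100 nM AG014699 minus its effect in cells given none. None of the 35 members was called by limma, against 0.00813% of all genes, and 6 had an unadjusted p under 0.05. The medians were 0.15 over the members and 0.01 over all genes. The 6 were CBS at 0.87 (95% interval 0.41 to 1.34), PSPH at 0.71 (0.27 to 1.15), PSAT1 at 0.61 (0.28 to 0.94), ASNS at 0.45 (0.08 to 0.83), PHGDH at 0.39 (0.08 to 0.71) and SLC3A2 at -0.44 (-0.82 to -0.06). The lowest adjusted p among them was 0.443, so a departure from additivity was not shown for any member. The single-drug and combined values of the enzymes stood side by side as follows: PSAT1 was at -0.68 at 100 nM, -0.70 with LY294002 and -0.77 with both, and CBS at -0.81, -0.83 and -0.76 in the same order.

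**Figure D5:**
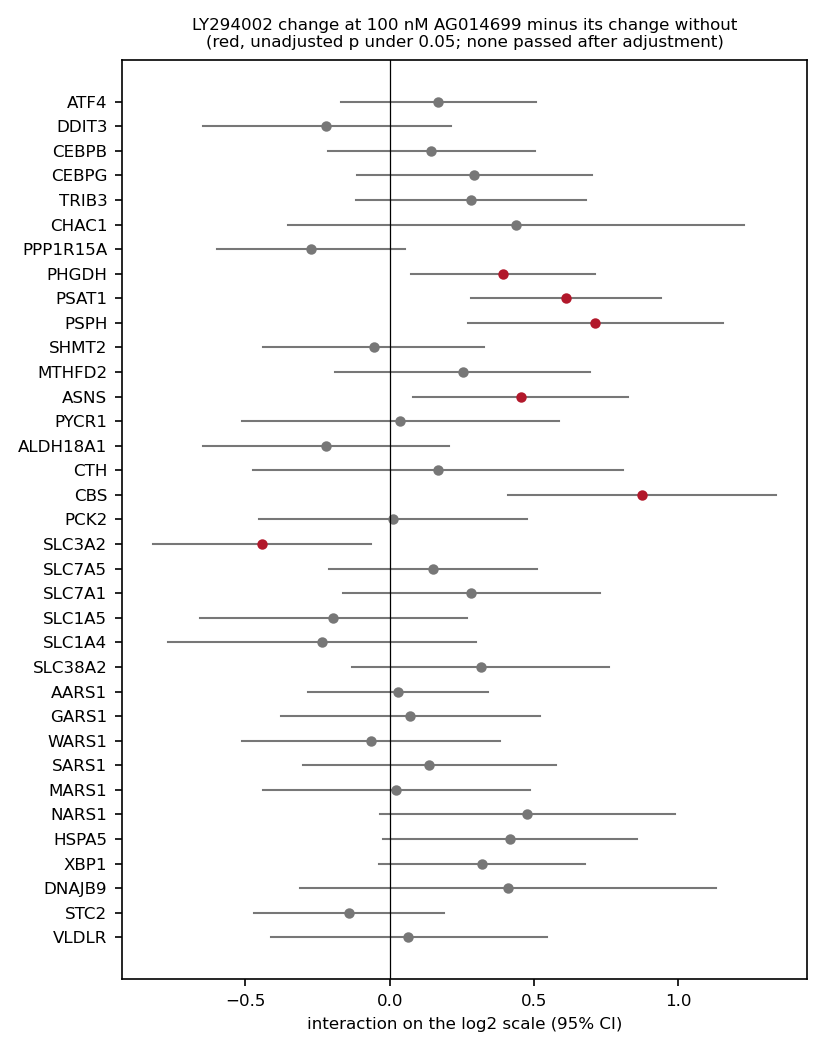
Interaction on the log2 scale (x axis, with the 95% interval of the limma fit, 3 arrays a group) for each of the 35 members (y axis). Intervals of 6 members do not cross 0, CBS, PSPH, PSAT1, ASNS and PHGDH above it and SLC3A2 below it, and no member passed after adjustment.

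Other genes of the same pathways, taken from lists that were also chosen with earlier results of these data known, were read beside the members. Of 24 measured genes of a list of 27 further ATF4 or integrated stress response genes, 1 rose and 0 fell at 10 nM AG014699, 5 rose and 2 fell at 100 nM, 1 rose and 2 fell with LY294002, and 4 rose and 4 fell in the combination. The shares called in these comparisons with DMSO were 4.17%, 29.2%, 12.5% and 33.3% of this list. Over all genes they were 2.37%, 21.5%, 1.12% and 19.9%. ATF3, a stress-induced transcription factor gene, had log2 signals of 9.91, 10.15 and 9.91 at 10 nM, 11.34, 11.27 and 11.16 at 100 nM, 10.47, 10.25 and 10.26 with LY294002 and 11.73, 11.60 and 11.49 in the combination, against 9.66, 9.65 and 9.30 in DMSO. It rose by 1.72 (SE 0.13, adjusted p = 5.62e-07) at 100 nM, by 0.79 (SE 0.13, adjusted p = 0.00829) with LY294002 and by 2.07 (SE 0.13, adjusted p = 7.4e-08) in the combination. SLC7A11, the cystine-carrying light chain that pairs with SLC3A2, rose by 1.17 at 100 nM (SE 0.16, adjusted p = 0.000139), and GDF15, a secreted stress cytokine gene, rose by 0.88 at 10 nM (SE 0.20, adjusted p = 0.0345). The GDF15 rise was not confined to 10 nM. Its log2 signals were 7.69, 7.56 and 7.03 at 100 nM and 7.13, 7.12 and 7.09 in the combination. In DMSO they were 6.55, 6.31 and 6.54. SLC6A9, a glycine transporter gene, fell by 0.87 at 100 nM (SE 0.20, adjusted p = 0.00562). With LY294002, DDIT4, an inhibitor of mTORC1, fell by 1.00 (SE 0.12, adjusted p = 0.000343) and BCAT1, a branched-chain amino acid transaminase gene, by 1.07 (SE 0.24, adjusted p = 0.0461). This BCAT1 call was lost (adjusted p = 0.0509 to 0.167) without any 1 array other than LY294002 array 2 and 100 nM arrays 1 and 2. BCAT1 was also called lower in the combination against DMSO, by 0.91, and at 100 nM against 10 nM, by 0.80. The combination call was lost without combination array 1 or 3 or DMSO array 2 or 3 (adjusted p = 0.0503 to 0.0569). Between the doses it was lost without any 10 nM or combination array, or array 2 or 3 of 100 nM or DMSO (adjusted p = 0.0544 to 0.163). The GDF15 call at 10 nM was lost (adjusted p = 0.0508 to 0.148) without 10 nM array 1 or 2, combination array 2 or any DMSO array. GDF15 was also called higher in the combination against DMSO, a call lost without any combination or DMSO array (adjusted p = 0.0647 to 0.119).

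None of 11 measured genes for the eIF2 kinases and related factors was called in any comparison. The shares of all genes called against DMSO are given below. They were 9.58% between the doses, 0.333% in the combination against 100 nM, 18.3% against LY294002 and 0.00813% in the interaction. Of 16 measured genes of a list of 19 further ER chaperones and unfolded protein response genes, 0 were called at 10 nM, 1 rose and 0 fell at 100 nM, 0 rose and 1 fell with LY294002, and 2 rose and 4 fell in the combination. The shares called were 0%, 6.25%, 6.25% and 37.5% of this list, and 2.37%, 21.5%, 1.12% and 19.9% of all genes. DNAJC3, which encodes an inhibitor of an eIF2 kinase, rose by 0.94 at 100 nM (SE 0.16, adjusted p = 0.000775) and by 0.75 in the combination (SE 0.16, adjusted p = 0.00422). The chaperone CANX and the disulfide isomerases PDIA4 and PDIA6 fell in the combination, by 0.63, 0.63 and 0.55 (adjusted p = 0.00754 for CANX, 0.0275 for PDIA4 and 0.0128 for PDIA6). They were not the largest falls among the genes of these lists: BCAT1 above fell further in the combination. The PDIA4 call was lost (adjusted p = 0.0736 to 0.103) without combination array 2 or 3 or DMSO array 1 or 2, and the PDIA6 call without combination array 2 (adjusted p = 0.0522) or DMSO array 1 (adjusted p = 0.0594).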

How the data were processed

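Per the file headers, the deposited table gave an intensity and a detection p-value per array for 48107 probes, of which 2 with missing intensities were left out. The authors' other table was on a log2 scale, with deposited values equal to the log2 intensity minus the probe's mean to within 1e-07. How the authors normalized the intensities is not given in the sources used here. Groups came from the treatment labels and replicate numbers from the titles. All columns were used. With limma 3.58.1 and statmod 1.5.0 under R 4.3.3, intensities were background corrected, quantile normalized and put on the log2 scale with neqc (offset 16). Probes with a detection p-value under 0.05 on at least 3 arrays were kept. Symbols came from the platform's annotation table. A gene was represented by its probe with the highest mean log2 signal. A limma model with 1 mean per group (10 residual and 4.8 prior degrees of freedom) gave all 8 comparisons, with Benjamini-Hochberg adjustment over 12302 genes and calls at an adjusted p under 0.05. Probes of a gene were also tested one by one among all probes. The number of arrays limits the precision.

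Every measured member could be named. Of the other pathway genes, at most 3 called in each direction per comparison were to be named. Those named were not in every case the genes with the largest log2 change. EPRS1 and BCAT1 in the combination were named in addition. The members and lists were chosen with earlier results of these data known. The fit was tested on simulated data. Promoter windows came from RefSeq (GRCh38.p14). Same-numbered arrays of different groups had correlations of their deviations from -0.074 to 0.323 (median 0.161, 21 of 30 pairs over 0.1), against a median of -0.086 for arrays of different number (4 of 60 over 0.1). The labels name no shared batch and not every same-numbered pair was over 0.1, the rule for pairing, so the fit has no replicate block.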

Additional observations from a re-analysis of the deposited data

How the results depend on the processing

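Of 48 calls of members in the 8 comparisons, 28 remained under all of the 24 alternatives that measured them (the authors' value table lacked CTH), 20 were lost under at least 1, and 0 changed direction. At 10 nM AG014699 against DMSO the 3 called members became 5 with quantile normalization alone, with the signals as deposited and with the authors' value table, which held 33 of the 35 members. The share of all genes called there was 2.37% in the main fit and 2.89%, 2.92% and 3.45% under these settings. The combination against 100 nM AG014699 had 1 called member, SLC38A2, instead of 0 under the same settings, where the share of all genes was 1.05%, 1.02% and 1.14% instead of 0.333%. Leaving out the 5 arrays numbered 1 together, a setting chosen after seeing the data, left 0 of 4 calls for LY294002 against DMSO, 5 of 8 at 100 nM against 10 nM and 5 of 10 in the combination against LY294002. This setting leaves 2 arrays a group. The share of all genes called fell as well, from 1.12% to 0.252%, from 9.58% to 5.38% and from 18.3% to 10.4% in the same order. Leaving out 1 array at a time gave 2 to 4 called members at 10 nM, 9 to 12 at 100 nM, 2 to 4 with LY294002 and 12 to 15 in the combination, each against DMSO, 5 to 8 at 100 nM against 10 nM, 9 to 11 in the combination against LY294002, and 0 to 0 in the combination against 100 nM and in the interaction. Over all genes the share was 1.14% to 2.67%, 15.4% to 23.8%, 0.52% to 1.3% and 14.3% to 21.9% against DMSO. It was 5.41% to 10.9% between the doses and 12.6% to 19% in the combination against LY294002. With the replicate number as a block, 3 members were called at 10 nM, 14 at 100 nM, 4 with LY294002, 13 in the combination, 9 between the doses, 0 in the combination against 100 nM, 10 in the combination against LY294002 and 0 in the interaction. In the same order the block called 2.76%, 25%, 1.52%, 23%, 12%, 0.65%, 21.2% and 0.00813% of all genes. The share of all genes thus rose as well, from 21.5% at 100 nM and from 9.58% between the doses. Of the 15 arrays 12 were nearest to arrays of their own number, a hint from the data and not from the design. The block added ATF4 (adjusted p = 0.0499), SLC38A2 (0.033), ALDH18A1 (0.0308) and DNAJB9 (0.0458) at 100 nM against DMSO and SLC38A2 (0.0279) between the doses. CTH moved most, from 0.31 to 1.15 at 100 nM. The cause of these changes was not tested. Signal near background limits CTH, CHAC1, the dimmer probes of PCK2 and PYCR1, and the dimmest ATF4 probe (mean log2 signal 6.09). It does not limit the ATF4 probe with a mean of 9.87.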
